A study of Saccharomyces cerevisiae with 5 samples.

Results

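Ribonucleotide reductase makes the building blocks of DNA, and 9 genes that encode this enzyme of Saccharomyces cerevisiae, its inhibitors and its regulators are described here across 5 strains. They were taken by their identifiers from a table of 6567 features, and all 9 were in it. The 4 genes of subunits are RNR1 (YER070W), RNR2 (YJL026W), RNR3 (YIL066C) and RNR4 (YGR180C). The 3 genes of small inhibitor proteins are SML1 (YML058W), DIF1 (YLR437C) and HUG1 (YML058W-A). The 2 regulators are DUN1 (YDL101C), a protein kinase, and RFX1 (YLR176C), a transcriptional repressor also known as Crt1.

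The enzyme reduces ribonucleotides to deoxyribonucleotides, which limit the pace of DNA synthesis. Rnr1 or its paralogue Rnr3 forms the large, catalytic subunit, and Rnr2 with Rnr4 forms the small subunit that holds the radical cofactor. Sml1 binds and inhibits the large subunit, Dif1 brings the small subunit into the nucleus and so keeps it from the cytoplasmic large subunit, and Hug1 binds the small subunit. When replication stalls or DNA is damaged, the kinases Mec1, Rad53 and Dun1 act in sequence. They lead to the loss of Sml1 and Dif1 and release Rfx1 from the promoters of RNR2, RNR3, RNR4 and HUG1, whereas RNR1 is mainly driven by the cell cycle factor MBF.

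The study sequenced poly(A) RNA from asynchronous cultures in mid-log phase, grown at 30C in rich medium. The 4 mutants were ino80d (ino80::LEU2), arp8d (arp8::LEU2), arp5d (arp5::LEU2) and ies6d (ies6::LEU2), by their labels each made in BY4741. Each lacked 1 subunit gene of the INO80 chromatin remodelling complex. WT was BY4741 itself, a MATa strain that by its label carries mutations in his3, leu2, met15 and ura3, which by their labels the mutants carry too, apart from the added LEU2. The deposited table gives 1 value per strain in FPKM (fragments scaled to the length of the feature in kilobases and to the number of mapped fragments), which stands for 2 biological replicates, so no value has a replicate error, no difference could be tested and library depth is unknown.

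In each mutant the deleted gene lay near 0, from 0.0257 FPKM for INO80 in ino80d to 0.211 FPKM for IES6 in ies6d. LEU2 lay at 81.3 to 125 FPKM in the mutants and 0.0619 FPKM in WT, so that marker and deletion cannot be told apart. LYS2 lay at 0.0138 FPKM in ino80d and 0.0390 FPKM in arp5d but between 25.01 and 36.9 FPKM in the other strains. MET17 (the met15 gene) lay at 807 FPKM in ino80d and 564 FPKM in arp8d but under 1 FPKM elsewhere. The MET17 level in ino80d and arp8d does not match the met15 mutation that their labels give, so their descent from BY4741 is uncertain. The strains therefore differed at more loci than their labels name.

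The DNA upstream of RNR1, HUG1, RNR2 and RNR4 is shown first, because these genes belong to the MBF and Rfx1 branches of control named above. RNR3 belongs to the Rfx1 branch as well but is not shown, and its matches are counted below. Sequences come from the RefSeq assembly R64, which sacCer3 names as well, and run 5′ to 3′ on the strand of the gene. In RNR1 the capitals mark the MBF box, ACGCGT, which reads alike on both strands. In the other 3 they mark GGNAAC or its reverse complement, one arm of the palindromic X-box that Rfx1 binds. Each stretch runs from the outermost to the innermost of a group of matches, with 10 bases on either side. RNR1 is shown from 502 to 291 bases before its start codon (chrV:298448-298659, plus strand), HUG1 from 249 to 109 bases before its start codon (chrXIII:158511-158651, plus strand), RNR2 from 486 to 352 bases before its start codon (chrX:391918-392052, plus strand) and RNR4 from 528 to 371 bases before its start codon (chrVII:856672-856829, minus strand). The RNR2 stretch lies inside YJL027C, an open reading frame annotated on the other strand.
RNR1: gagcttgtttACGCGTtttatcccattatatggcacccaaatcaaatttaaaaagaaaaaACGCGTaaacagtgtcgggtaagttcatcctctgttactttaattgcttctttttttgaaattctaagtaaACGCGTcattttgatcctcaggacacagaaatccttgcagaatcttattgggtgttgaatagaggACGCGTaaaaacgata
HUG1: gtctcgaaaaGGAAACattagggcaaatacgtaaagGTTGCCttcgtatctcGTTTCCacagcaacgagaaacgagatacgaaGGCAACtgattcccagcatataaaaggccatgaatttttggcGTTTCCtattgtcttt
RNR2: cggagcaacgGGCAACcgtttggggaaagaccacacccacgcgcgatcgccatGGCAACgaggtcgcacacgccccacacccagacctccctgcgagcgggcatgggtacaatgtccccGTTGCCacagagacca
RNR4: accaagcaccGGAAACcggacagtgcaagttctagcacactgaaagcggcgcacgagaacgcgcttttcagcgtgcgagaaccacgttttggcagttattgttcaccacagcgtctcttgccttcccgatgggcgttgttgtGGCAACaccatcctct

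Both motifs were searched on both strands in the 600 bases before the start codon of each of 6002 protein-coding genes, whatever else those bases hold. The MBF box was present in 6.33% of all such windows and in 3 of the 9 genes. RNR1 held 4 copies, 492, 442, 371 and 306 bases before the start codon, and was the single window of the 6002 with so many. RNR3 held 2 copies, a number reached by 40 of the windows, and DUN1 held 1.

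The X-box arm was far more common, present in 58.7% of all windows and in 6 of the 9 genes. HUG1 and RNR2 held 6 copies each, a number reached by 7 windows of the 6002, and RNR4 held 3, reached by 6.98% of windows. RNR1 held 2, RNR3 and SML1 held 1 each, and DIF1, DUN1 and RFX1 held none in this window. No match of one motif overlapped a match of the other in the members' windows. A match of these letters is a description of the sequence and not a measured site of binding.

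**Figure D1:**
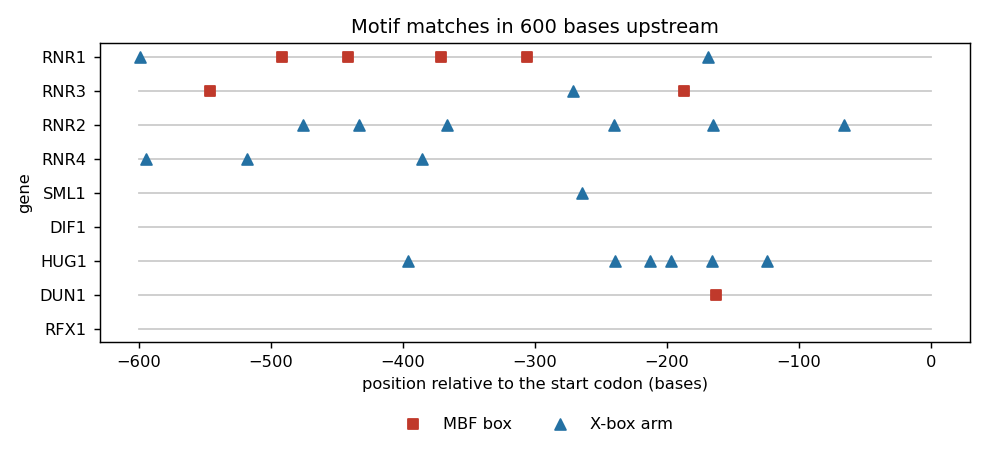
Matches of the MBF box (squares) and of the X-box arm (triangles) in the 600 bases before the start codon of each gene; the x axis is the position in bases relative to the start codon. RNR1 has 4 MBF boxes, and HUG1 and RNR2 have 6 X-box arms each.

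Of the 9 genes, 8 had a lower level in all 4 mutants than in WT, and RFX1 alone did not. The share of all features that lay below WT in all 4 mutants, by any amount, is not given here. The 8 include RNR3, which did not pass the filter described below. HUG1 lay lowest relative to WT, at 6.0 to 12.9-fold lower, followed by RNR4 at 2.24 to 2.98-fold lower. The other subunit genes, DIF1, SML1 and DUN1 lay 1.26 to 1.91-fold lower. Because all 4 comparisons share the 1 WT value, they are not independent of each other, and a WT value that was high by chance would lower a gene in every mutant alike.

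The fold rule was applied to the log2 ratio of FPKM + 1 among the 6192 features with a mean of at least 5 FPKM over the 5 strains, which 8 of the 9 members passed. RNR3, with a mean of 4.70 FPKM, did not, and its values are given without a call. At least 1.5-fold lower were 6 of the 8 in ino80d cells, 6 in arp8d, 7 in arp5d and 5 in ies6d cells. Over all kept features the same held for 13.2% in ino80d cells, 8.33% in arp8d, 10.9% in arp5d and 10.4% in ies6d cells. No member was 1.5-fold higher in any mutant, against 15.1%, 11%, 13.3% and 14.4% of kept features in the same order. RNR2, RNR4, HUG1, DIF1 and DUN1, that is 5 of the 8, were at least 1.5-fold lower in all 4 mutants, against 4.78% of kept features. With a pseudocount of 5 FPKM 3 of them remained, RNR2, RNR4 and HUG1, and 3 remained when each gene was set against the median of its own chromosome, RNR4, HUG1 and DUN1. At least 2-fold lower were RNR4 and HUG1, in each of the 4 mutants, against 4.39% of kept features in ino80d cells, 2.45% in arp8d, 3.6% in arp5d and 3.55% in ies6d.

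Taken over the 8 kept members, the median log2 ratio was -0.73 in ino80d cells, -0.62 in arp8d, -0.68 in arp5d and -0.63 in ies6d cells. Over all kept features it was -0.01 in ino80d, with -0.02 in arp8d, arp5d and ies6d alike. Several calls stood close to the threshold of 0.58 on the log2 scale, above all those of DIF1, and centring each mutant on its median ended the DIF1 call in ino80d and arp5d. Setting each gene against the median of its own chromosome left 3 members 1.5-fold lower in ies6d, HUG1, RNR4 and DUN1.

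**Figure D2:**
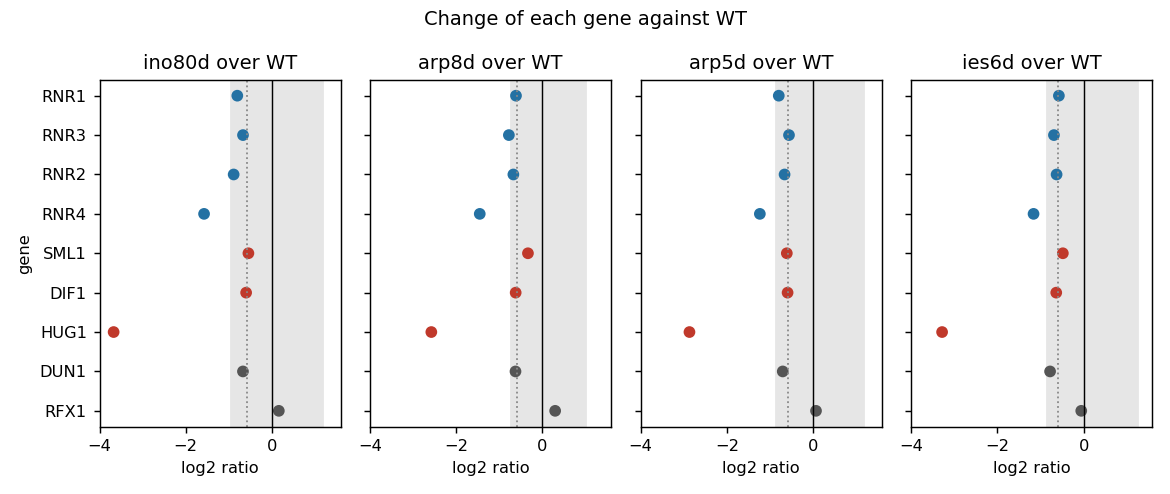
Log2 ratio of FPKM + 1 of each mutant over WT for the 9 genes, with subunits in blue, inhibitors in red and regulators in grey; the shaded band spans the 5th to the 95th percentile of the 6192 kept features and the dotted line marks 1.5-fold lower. HUG1 and RNR4 lie below the band in all 4 mutants, and RFX1 lies close to 0.

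Among the subunits, RNR1 encodes the main large subunit, whose RNA peaks as cells enter S phase (chromosome V, 298950 to 301616, coding length 2667 bp). It lay at 121 FPKM in ino80d cells, 138 in arp8d, 122 in arp5d and 142 in ies6d, against 212 FPKM in WT. The 4 mutants formed a narrow range below WT, with ino80d and arp5d almost alike. In bulk RNA, fewer cells in the stage that expresses a gene and less RNA per cell cannot be told apart. The log2 ratio was -0.80, -0.61 and -0.79 in ino80d, arp8d and arp5d, and -0.57 in ies6d, just short of 1.5-fold. Set against the median of its own chromosome, RNR1 in arp8d came to -0.54, and that call ended.

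RNR3 encodes the second large subunit, which is scarce without DNA damage (chromosome IX, 238099 to 240708, coding length 2610 bp). It lay at 4.11 FPKM in ino80d cells, 3.73 in arp8d, 4.52 in arp5d and 4.04 in ies6d, against 7.12 FPKM in WT. These were the lowest levels of the 9 genes in every strain. Its coding sequence aligned to RNR1 with 79.0% identity over 2293 bases, and that of RNR2 to RNR4 with 68.0% identity over 891 bases. A blastn search of all coding sequences found no other copy of a member. The log2 ratios of FPKM + 1, from -0.78 in arp8d to -0.56 in arp5d, understate the change of so low a gene. An unannotated feature of the table, YIL066W-A, lay at 24.0, 24.4, 27.5 and 21.6 FPKM in ino80d, arp8d, arp5d and ies6d, against 33.8 FPKM in WT, and whether it shares reads with RNR3 was not tested.

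RNR2 encodes the subunit that holds the iron cofactor (chromosome X, 392404 to 393603, coding length 1200 bp). It lay at 165 FPKM in ino80d cells, 192 in arp8d, 193 in arp5d and 198 in ies6d, against 306 FPKM in WT. The mutants other than ino80d were nearly equal, and ino80d was the lowest, with a log2 ratio of -0.88 beside -0.67, -0.66 and -0.63. An unannotated feature, YJL026C-A, kept a nearly fixed ratio to RNR2, at 3.79 times its FPKM in ino80d cells, 4.02 in arp8d, 3.84 in arp5d, 3.98 in ies6d cells and 3.97 in WT. The libraries do not record strand, and whether the authors' counting divided reads between these features was not tested, so the level of RNR2 relative to other genes is uncertain.

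RNR4 encodes the partner of Rnr2, a homologue that lacks ligands for the metal and is needed to assemble the cofactor (chromosome VII, 855264 to 856301, coding length 1038 bp). It lay at 279.7 FPKM in ino80d cells, 304 in arp8d, 354 in arp5d and 372 in ies6d, against 834 FPKM in WT. All mutants stood at less than 0.45 of the WT level. The log2 ratio was -1.57 in ino80d cells, -1.45 in arp8d, -1.23 in arp5d and -1.16 in ies6d, which placed RNR4 at percentile 1.52, 1.11, 2.15 and 2.57 of the kept features.

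The small subunit genes did not keep their ratio to each other. RNR4 over RNR2 was 1.69 in ino80d cells, 1.59 in arp8d, 1.83 in arp5d and 1.88 in ies6d, against 2.72 in WT. RNR1 over RNR3 was 29.5, 37.0, 26.9 and 35.1 in the same mutants, against 29.7 in WT. The side on which the mutants lay depended on the pseudocount, since with 5 FPKM added to both genes it was 13.8, 16.4, 13.3 and 16.3 in the mutants, against 17.9 in WT. RNR2 over RNR1 lay on both sides of WT, at 1.36, 1.39, 1.59 and 1.39 in the mutants, against 1.45 in WT. Summed per length, the 4 subunit genes reached 570.3 FPKM in ino80d cells, 637 in arp8d, 673 in arp5d and 716 in ies6d, against 1358.5 FPKM in WT.

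**Figure D3:**
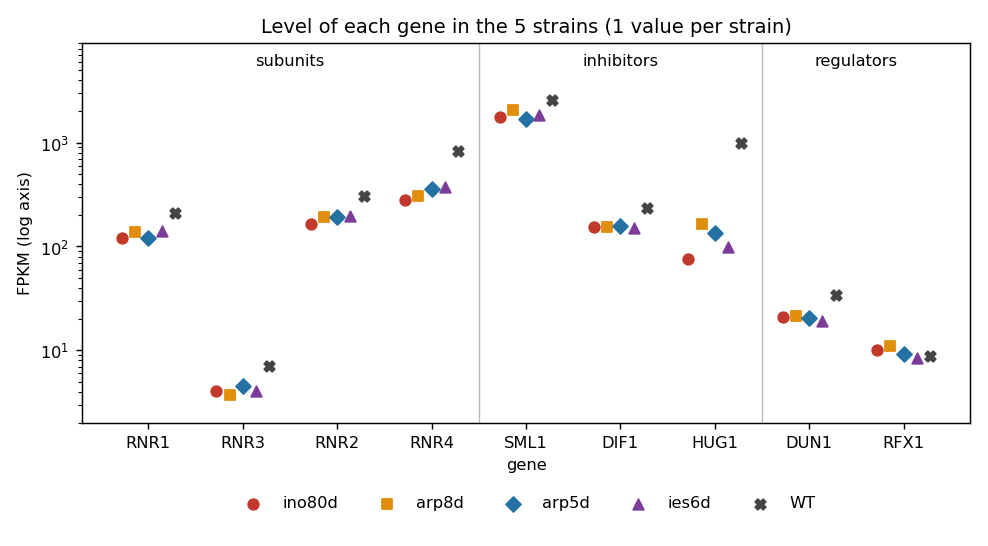
FPKM on a log axis for each gene in ino80d, arp8d, arp5d, ies6d and WT, 1 point per strain. The WT point lies above the 4 mutant points for every gene but RFX1, and the widest gap is that of HUG1, at 76.2 to 164 FPKM in the mutants and 983 FPKM in WT.

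Among the inhibitors, HUG1 encodes a small protein of the same family as Sml1 and Dif1 and is known as a gene induced strongly by DNA damage and replication arrest (chromosome XIII, 158760 to 158966, coding length 207 bp). It lay at 76.2 FPKM in ino80d cells, 164 in arp8d, 134 in arp5d and 99.9 in ies6d, against 983 FPKM in WT. The mutants were spread over a range of more than 2-fold, yet every one was far below WT. In WT, HUG1 stood above 94.4% of kept features and was the second highest of the 9 genes. In the mutants it stood above 57.0% in ino80d cells, 76.0% in arp8d, 71.6% in arp5d and 64.3% in ies6d cells, and took the sixth, the fourth, the fifth and the sixth place among the 9.

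The log2 ratio of HUG1 was -3.67 in ino80d cells, -2.58 in arp8d, -2.87 in arp5d and -3.29 in ies6d. Short genes vary more between strains in this table: the SD of the log2 difference arp5d minus ies6d was 1.20 over the 231 open reading frames of up to 300 bp and 0.388 over those longer than 300 and up to 600 bp. Set against those 231, which had a median log2 ratio of 0.00 to 0.30, HUG1 still stood near the bottom, with 4 genes lower in ino80d cells, 5 in arp8d, 4 in arp5d and 6 in ies6d.

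SML1, the inhibitor of the large subunit, is the next gene downstream of HUG1 on the same strand, 416 bp away (chromosome XIII, 159383 to 159697, coding length 315 bp). It lay at 1769 FPKM in ino80d cells, 2042 in arp8d, 1690.3 in arp5d and 1844 in ies6d, against 2576 FPKM in WT. It was the highest of the 9 genes in each strain, and arp8d was the mutant closest to WT. The log2 ratio was -0.54, -0.33, -0.61 and -0.48, so that 1.5-fold was passed in arp5d alone. That call rested on the centring: against the own chromosome SML1 in arp5d came to -0.54 and no longer passed, and against genes of like length SML1 in ies6d came to -0.62 and passed. HUG1 over SML1 was 0.0431 in ino80d cells, 0.0802 in arp8d, 0.0791 in arp5d and 0.0542 in ies6d, against 0.382 in WT.

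DIF1, the nuclear import factor of the small subunit, varied least (chromosome XII, 1011622 to 1012023, coding length 402 bp). It lay at 155 FPKM in ino80d cells, 152 in arp8d, 156 in arp5d and 151 in ies6d, against 235 FPKM in WT. The mutants were nearly level, with log2 ratios of -0.59, -0.62, -0.59 and -0.63. Their range of 0.05 on the log2 scale was narrower than that of all but 0.614% of kept features. An unannotated feature set beside DIF1 by its number alone, YLR437C-A, lay at 7.11, 10.6, 10.5 and 7.89 FPKM in the mutants in that order, against 31.6 FPKM in WT. It did not keep a fixed ratio to DIF1, at 0.0458, 0.0698, 0.0671 and 0.0523 times its FPKM in the mutants and 0.135 in WT. Its share in the reads of DIF1 was not tested.

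The inhibitors were also set against subunit genes within each strain, SML1 and HUG1 against RNR1 and DIF1 against RNR2. SML1 over RNR1 was 14.6 in ino80d cells, 14.8 in arp8d, 13.9 in arp5d and 13.0 in ies6d, against 12.2 in WT, a small difference that rests on 1 WT value. HUG1 over RNR1 was 0.629, 1.19, 1.1 and 0.704 in the mutants, against 4.65 in WT. DIF1 over the small subunit gene RNR2 was 0.938, 0.796, 0.805 and 0.762, against 0.767 in WT. Summed, the 3 inhibitor genes reached 2000.2 FPKM in ino80d cells, 2359 in arp8d, 1980 in arp5d and 2095 in ies6d, against 3794 FPKM in WT.

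**Figure D4:**
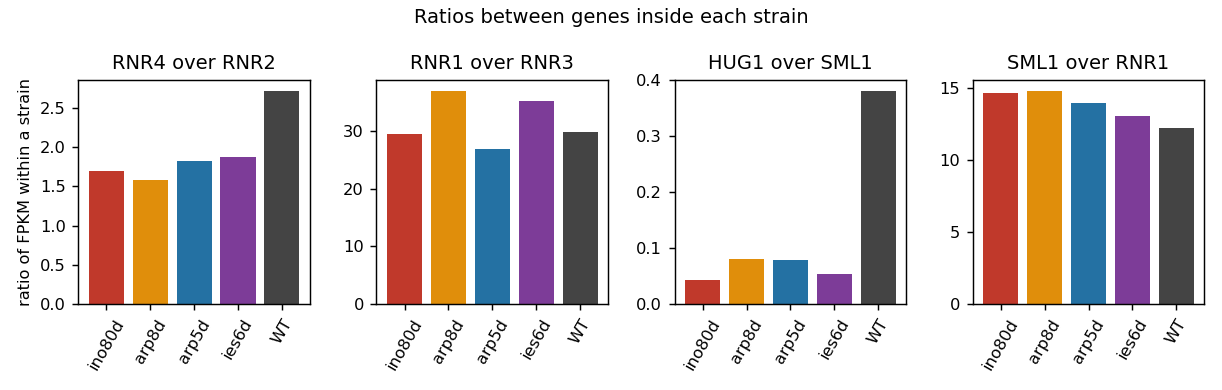
Ratio of FPKM between 2 genes inside each strain, as bars from 0 for ino80d, arp8d, arp5d, ies6d and WT. RNR4 over RNR2 and HUG1 over SML1 are lower in the 4 mutants than in WT, while SML1 over RNR1 is 13.0 to 14.8 in the mutants and 12.2 in WT.

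Of the regulators, DUN1 encodes the kinase that marks Sml1 and Dif1 for removal (chromosome IV, 280307 to 281848, coding length 1542 bp). It lay at 20.9 FPKM in ino80d cells, 21.6 in arp8d, 20.4 in arp5d and 19.3 in ies6d, against 33.8 FPKM in WT. The mutants were close together, and the log2 ratios were -0.67, -0.62, -0.70 and -0.78. With a pseudocount of 5 FPKM the call ended in ino80d and arp8d.

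RFX1 encodes the repressor that recruits Tup1 and Cyc8 to the damage-inducible RNR promoters (chromosome XII, 507797 to 510232, coding length 2436 bp). It lay at 10.02 FPKM in ino80d cells, 11.1 in arp8d, 9.33 in arp5d and 8.47 in ies6d, against 8.83 FPKM in WT. The WT value fell inside the range of the mutants. The log2 ratio was 0.16, 0.30, 0.07 and -0.05, at percentile 63.5, 78.2, 58.2 and 47.5 of the kept features. The sign of the ies6d value changed with the centring.

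The mutants can be set against each other without the WT value. In 3 of the 6 pairs of mutants HUG1 was at least 1.5-fold apart, with log2 differences of -1.09 for ino80d over arp8d, -0.80 for ino80d over arp5d and 0.71 for arp8d over ies6d. None of the other 8 genes was 1.5-fold apart in any pair, and their largest difference was 0.41, that of RNR4 between ino80d and ies6d. These 8 include RNR3, which did not pass the filter, is not among the kept features, and whose low level shrinks its differences after 1 FPKM is added. Among kept features the share at least 1.5-fold apart was 7.54% for ino80d against arp8d, 3.84% for ino80d against arp5d, 6.31% for ino80d against ies6d, 5.6% for arp8d against arp5d, 6.77% for arp8d against ies6d and 3.65% for arp5d against ies6d. The range of HUG1 over the mutants, 1.09 on the log2 scale, was at percentile 96.6 of kept features, and the ranges of RNR4 (0.41), RNR2 (0.26) and RNR1 (0.23) at 69.3, 41.8 and 34.1, with a median range of 0.29 over all kept features. Short genes ranged more widely: over the 231 open reading frames of up to 300 bp, HUG1 among them, the median range was 0.61. The range of HUG1 was not ranked within that class.

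Genes of the surrounding pathway were read from lists. For all list counts, the shares of kept features 1.5-fold lower were 13.2%, 8.33%, 10.9% and 10.4% in ino80d, arp8d, arp5d and ies6d. The shares 1.5-fold higher were 15.1%, 11%, 13.3% and 14.4%. Among 14 genes listed under checkpoint kinases and sensors, none was 1.5-fold lower in ino80d but 1 was in arp8d, in arp5d and in ies6d. In ino80d 1 was 1.5-fold higher, and none was elsewhere. The median log2 ratio was -0.02 in ino80d cells, -0.08 in arp8d, -0.15 in arp5d and -0.14 in ies6d cells. The lower gene was RAD53, the effector kinase, at 8.12 FPKM in ino80d cells, 7.36 in arp8d, 6.23 in arp5d and 7.22 in ies6d, against 11.6 FPKM in WT. The gene higher in ino80d was TEL1, a sensor kinase, with log2 ratios of 0.64, 0.55, 0.44 and 0.37.

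Among 9 regulators of RNR transcription, 1 was 1.5-fold lower in each mutant and 1 was higher, in arp8d. The lower gene was NRM1, a corepressor of MBF targets that is itself an MBF target, at 49.6 FPKM in ino80d cells, 46.8 in arp8d, 46.6 in arp5d and 45.0 in ies6d, against 81.1 FPKM in WT. The median log2 ratio of this list lay between -0.26 and -0.17. The 3 genes of the ubiquitin ligase that removes Sml1 were all within 1.5-fold of WT. RAD6, its ubiquitin-conjugating enzyme, had log2 ratios of 0.01 to 0.17, and UBR2, its recognition component, of -0.01 to 0.41.

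Among 7 genes of small subunit localisation and cofactor assembly, 1, 1, 2 and 2 were 1.5-fold lower in ino80d, arp8d, arp5d and ies6d, and none was higher. WTM1, which anchors the small subunit in the nucleus, lay at 149 FPKM in ino80d cells, 196 in arp8d, 156 in arp5d and 166 in ies6d, against 289 FPKM in WT. DRE2, an iron-sulfur protein needed for the cofactor, had log2 ratios of -0.57, -0.71, -0.67 and -0.68. The 6 thioredoxin and glutaredoxin genes, which supply the electrons, held 1 gene 1.5-fold lower, in ino80d, and 2 higher, in ies6d. TRX1, a cytosolic thioredoxin, had log2 ratios of -0.60, -0.40, -0.29 and -0.13, and GRX2, a glutaredoxin, of -0.03, 0.37, 0.31 and 0.60.

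Of 9 other genes of deoxynucleotide synthesis, 3, 1, 3 and 2 were 1.5-fold lower and 0, 0, 0 and 1 higher. ADK1, adenylate kinase, was lower in all 4, at 1118 FPKM in ino80d cells, 1202 in arp8d, 1096 in arp5d and 1107 in ies6d, against 2184 FPKM in WT. Of 13 other DNA damage-induced genes, 11 were kept, of which 2, 1, 2 and 1 were 1.5-fold lower and 1, 0, 0 and 1 higher, with medians from -0.06 to 0.07. PLM2, a putative transcription factor of this list, had log2 ratios of -0.99, -0.52, -0.78 and -0.87, and DDR48, a stress gene, of -1.32, -0.65, -0.60 and -0.38. PLM2 is also in the list of MBF targets read below. MAG1, named after its values were seen, went the other way, with log2 ratios of 0.80, 0.56, 0.36 and 0.46.

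Lists of cell cycle genes were read beside RNR1, since an asynchronous culture holds cells of all stages. Among 13 MBF targets of the G1/S transition, 5, 4, 7 and 4 were 1.5-fold lower with none higher and medians of -0.55, -0.50, -0.62 and -0.55 beside the RNR1 values of -0.80, -0.61, -0.79 and -0.57. CLB6, an S phase cyclin, lay at 6.75 FPKM in ino80d cells, 7.48 in arp8d, 5.20 in arp5d and 4.94 in ies6d, against 16.6 FPKM in WT. SWE1, the kinase of the morphogenesis checkpoint, had log2 ratios of -0.78, -0.73, -1.01 and -1.03.

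Among 7 SBF targets of the same transition, 5, 3, 5 and 5 were 1.5-fold lower with none higher and medians of -0.86, -0.51, -1.08 and -0.93. CLN1, a G1 cyclin, lay at 35.8 FPKM in ino80d cells, 42.1 in arp8d, 43.9 in arp5d and 41.3 in ies6d, against 117 FPKM in WT. YOX1, a repressor of the M/G1 programme, and HCM1, an S phase transcription factor, were lower in all 4 as well, with log2 ratios of -1.20 to -0.86 and -1.27 to -0.93.

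Lists of the other stages differed from each other. The median of the G2/M genes was below 0 in all 4 mutants, and in ies6d, at -0.56, it was close to the -0.55 of the MBF targets. Of 8 S phase histone genes, 2, 0, 1 and 0 were 1.5-fold lower with none higher and medians of -0.22, -0.21, -0.09 and 0.15. HTA1 and HTB2, which encode histones H2A and H2B, had log2 ratios of -0.78 to -0.08 and of -0.41 to -0.07, and the close copies of these genes make their values uncertain. Of 9 G2/M genes, 1, 4, 3 and 4 were lower with none higher and medians of -0.14, -0.43, -0.39 and -0.56, and CLB1, a mitotic cyclin, had log2 ratios of -1.17, -1.21, -1.60 and -1.20. Of 8 M/G1 genes, 1, 1, 1 and 1 were lower and 0, 0, 1 and 1 higher. The gene lower in ino80d was RME1, at -0.75, and the gene higher in ies6d was CTS1, at 0.63. Both were named after their values were seen. SIC1, the inhibitor of S phase cyclin kinase, had log2 ratios of 0.54, 0.46, 0.60 and 0.57, and CDC6, a replication licensing factor, of -0.33, -0.69, -0.65 and -1.04. The part of cell cycle stage in the levels of RNR1 and the other members was not tested.

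**Figure D5:**
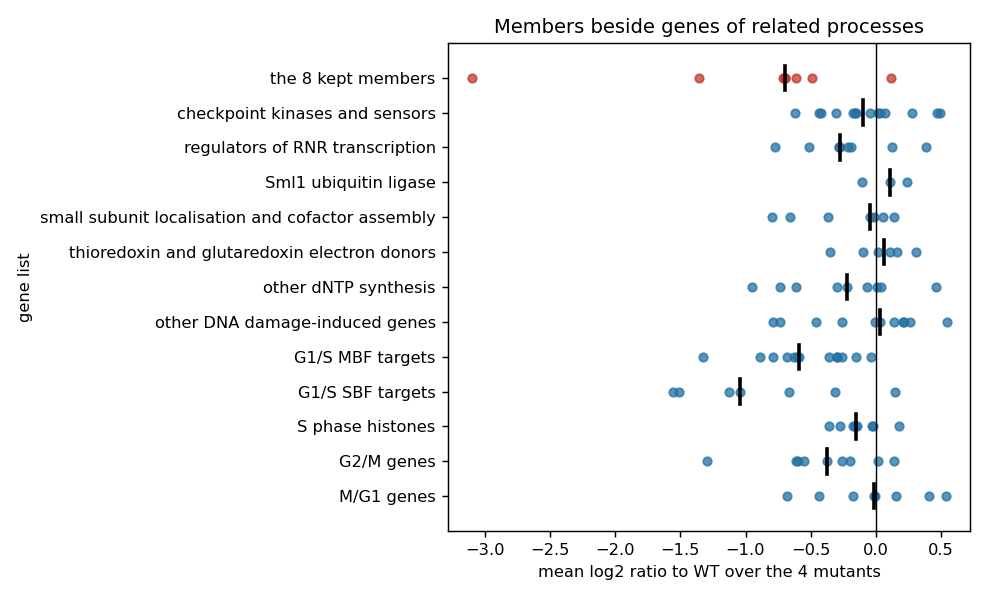
Mean log2 ratio to WT over the 4 mutants for each of the 8 kept members (red) and for the kept genes of each related list (blue), with the median of each row as a black bar. The lowest point of all is HUG1, and the medians of the G1/S rows, -0.59 for MBF and -1.04 for SBF targets, lie lowest among the lists.

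For the members at least 2-fold from WT, the most similar genes were sought among 5402 annotated open reading frames of at least 300 bp, by the Euclidean distance over the 4 log2 ratios. Nearest to RNR4 were HIS4, an enzyme of histidine synthesis, at a distance of 0.256, AQY2, an aquaporin gene, at 0.328, and ADE57, the gene of a bifunctional enzyme of purine synthesis, at 0.357. HIS4 lay at 72.5 FPKM in ino80d cells, 76.8 in arp8d, 79.7 in arp5d and 83.02 in ies6d, against 213 FPKM in WT, in the same order of mutants as RNR4. Nearest to HUG1 were PHO89, a phosphate transporter, at 0.811, LEU1, an enzyme of leucine synthesis, at 1.03, and PHO84, the high-affinity phosphate transporter, at 1.33. These distances are over 4 strains that share 1 WT value, and those of HUG1 exceed those of RNR4. The mutants carry the marker LEU2 and WT is leu2, so for LEU1 marker and deletion cannot be told apart.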

How the data were processed

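The authors deposited FPKM values, 1 column per strain, each standing for 2 biological replicates; TopHat2 and Cuffdiff with build sacCer3 are named in the submitters' processing notes. Versions, annotation and library size setting are not given in the sources used here. Per the labels' protocols, libraries were made with the Illumina TruSeq RNA v2 kit, which does not keep strand. All 5 columns were used, and 0 were left out.

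Identifiers were matched to RefSeq R64 by locus tag (5888 of 6567 features). Each mutant was set against WT as a log2 ratio, after adding 1 FPKM, among 6192 features with a mean of at least 5 FPKM. The fold rule was 1.5-fold, or 2-fold where stated, and no test was run since each strain has 1 value. Members, lists and rules were chosen with earlier results of these data known. Named were all members, their chromosomal neighbours, up to 4 genes of each list that were 1.5-fold from WT in all 4 mutants (otherwise the 2 with the largest mean change), and the 3 genes most like each member at least 2-fold from WT. Coding sequences were compared with blastn 2.17.0. Calculations used Python 3.11.15 with pandas 2.3.3, and were tested on simulated data. Depth is unknown, so no counting interval is given. The alternatives were other pseudocounts, filters, centrings and fold thresholds.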

Additional observations from a re-analysis of the deposited data

How the results depend on the processing

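In each mutant, the count of members 1.5-fold lower stayed within 1.5 times their value when the pseudocount was 0.1 or 5 FPKM, when the filter was dropped or set at 20 FPKM, when the fold threshold was lowered, and after centring on all kept features or on genes of like length. With a 2-fold threshold the count was 2 in ino80d cells, 2 in arp8d, 2 in arp5d and 2 in ies6d. Centring on the own chromosome gave 3 in ies6d cells and changed no other mutant's count beyond that limit. The count of members lower in all 4 mutants, 5 as reported, was 3 with a pseudocount of 5 FPKM, 3 after centring on the own chromosome and 2 with the 2-fold threshold. RNR1 over RNR3 depended on the pseudocount, since RNR3 is low: with 5 FPKM added to both genes it was 13.8 in ino80d cells, 16.4 in arp8d, 13.3 in arp5d, 16.3 in ies6d cells and 17.9 in WT, so that all 4 mutants lay below WT. Of 284 values of single members under an alternative, 250 stayed on their side of the threshold, 29 no longer passed it, and 5 newly passed it. No value past the threshold turned its direction, and 2 values short of it did: RFX1 in ies6d, -0.05 as reported, was 0.01 against its own chromosome and 0.04 against genes of like length. Of the 29, 16 came from the 2-fold threshold and 6 from centring on the chromosome. HUG1 and RNR4 passed the threshold in all 4 mutants under each alternative. No paired analysis was possible because each strain has 1 value. Library depth is unknown, so no counting error could be given.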

Other observations

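Genes next to the members on the chromosome were read in the same way. Of 14 kept neighbours that are not members, 1 was 1.5-fold lower in ino80d cells, 1 in arp8d, 1 in arp5d and 2 in ies6d cells, and 1 was higher, in ies6d cells. Among all kept features 13.2%, 8.33%, 10.9% and 10.4% were 1.5-fold lower in the same order, and 14.4% were higher in ies6d. The gene lower in all 4 was CAR2, ornithine aminotransferase of arginine breakdown, which starts 477 bp from DIF1 on the other strand. It lay at 6.63 FPKM in ino80d cells, 14.6 in arp8d, 8.88 in arp5d and 6.23 in ies6d, against 26.5 FPKM in WT, so that it was spread more widely over the mutants than DIF1. RRN7, a transcription factor of RNA polymerase I next to RNR2, was 1.5-fold lower in ies6d, with log2 ratios of -0.07, -0.32, -0.53 and -0.68 in ino80d, arp8d, arp5d and ies6d. FIS1, a mitochondrial fission gene next to RNR3, was the 1 higher in ies6d, with log2 ratios of 0.41, 0.45, 0.52 and 0.64.

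Near HUG1 and SML1, NTE1 had log2 ratios of -0.01, -0.15, -0.11 and -0.23 and CMP2 of 0.24, 0.18, 0.31 and 0.13. Beside RNR4, OKP1 had log2 ratios of -0.06 to 0.18. Beside RNR1, TDA2 and ARG56 were within 1.5-fold of WT in all 4 mutants, as were POL3 and GET3 beside DUN1, CBF5 and YLR177W beside RFX1, ECM30 beside DIF1 and YIL067C beside RNR3. YJL027C, beside RNR2, was under the filter at 1.67 FPKM in WT, and the transfer RNA gene beside RNR4 was not analysed here.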
